A study of Rattus norvegicus with 12 samples.

Results

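Interferon-stimulated genes, the genes whose transcription interferon turns on, were followed in RNA from whole rat lung. They were taken by symbol from a list of 38 genes that was drawn up with earlier results of these data known. All 38 were found among the 32883 genes of the count table and all 38 passed the filter on low counts, with 15257 genes tested in all. The rats were labelled wild type, and the lungs carried a time of 25 days in every group, with no day given from which it counts. MCT-Fer-1 rats had received monocrotaline and then ferrostatin-1 for 10 days. MCT-Vehicle rats had received monocrotaline and then the vehicle of ferrostatin-1 for 10 days. Control rats carry no treatment beyond that label, and no vehicle dosing is stated for them, so that against Control the effects of monocrotaline and of the vehicle cannot be told apart. Each group held 4 libraries. Monocrotaline is a plant alkaloid that damages pulmonary vessels and produces pulmonary hypertension in rats, with inflammation around the vessels. Ferrostatin-1 traps lipid radicals and blocks ferroptosis, a lipid peroxidation-driven form of cell death.

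Type I and type III interferons are secreted when receptors inside the cell, such as RIG-I, MDA5 or cGAS, meet viral or misplaced self nucleic acid. Type I and type III interferons act through JAK kinases on a transcription factor complex that holds STAT2 and IRF9 and binds the interferon-stimulated response element, while interferon-gamma acts at the gamma-activated site. The induced proteins sense RNA, block viral entry, translation and release, and feed back on the pathway. Most of these roles were worked out in human and mouse cells. In the lung, epithelial cells, macrophages and endothelial cells can all express these genes.

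Few members differed between the groups. In MCT-Vehicle against Control 3 of 38 members were called, all higher: Lgals3bp, Gbp4 and Eif2ak2. Calls used edgeR's quasi-likelihood test, with the p adjusted by Benjamini-Hochberg over all genes tested and a threshold of 0.05. The share of members called was 7.89%, against 18.6% of all genes tested (10.3% higher and 8.28% lower). In MCT-Fer-1 against Control 3 of 38 members were called, with Lgals3bp and Eif2ak2 higher and Irf1 lower. This share was again 7.89%, against 10.8% of all genes in that comparison (4.12% lower and 6.67% higher). In MCT-Fer-1 against MCT-Vehicle 0 members were called, and so were 0 of all genes (0%). The difference from the share of all genes did not hold in every fit. Without MCT-Vehicle 3 the MCT-Vehicle against Control count was 7 members, all higher, or 18.4% against 17.5% of all genes. Without MCT-Vehicle 2 it was 6, all higher, or 15.8% against 15.9% of all genes. For MCT-Fer-1 against Control the count was 5, with 3 higher and 2 lower, without MCT-Vehicle 1 or without MCT-Vehicle 2, or 13.2% against 10.9% and 10.5% of all genes. The plot of all members by library shows that much of the variation lay between libraries of the same group.

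**Figure D1:**
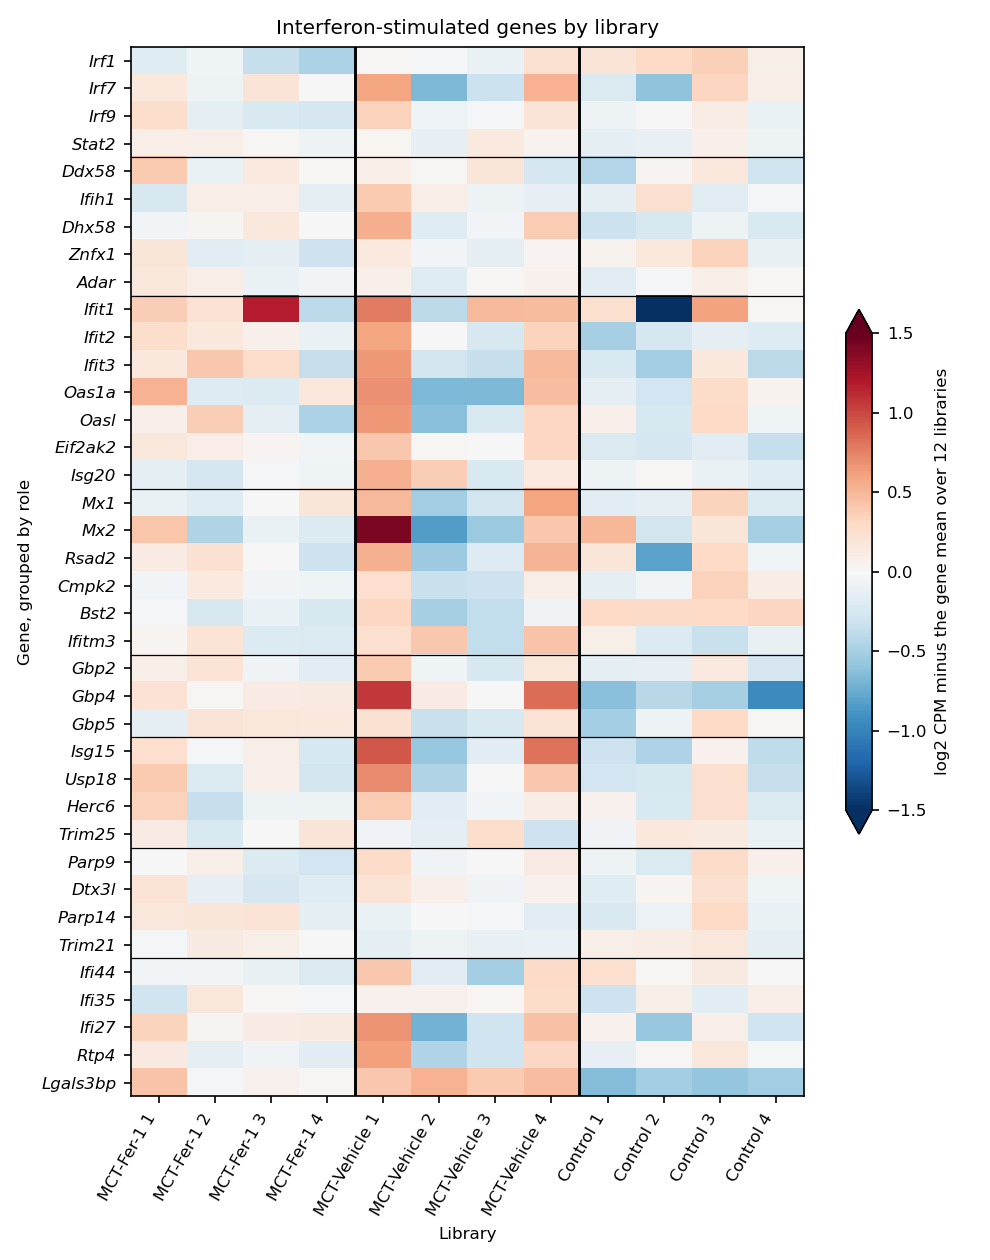
Log2 CPM of the 38 interferon-stimulated genes in each of the 12 libraries, minus the mean of the gene over all libraries, with red above and blue below that mean; genes run down the page by role and libraries across it by group. MCT-Vehicle 1 and MCT-Vehicle 4 are red for most genes, MCT-Vehicle 2 and MCT-Vehicle 3 blue, and Lgals3bp and Gbp4 are blue in all 4 Control libraries.

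Libraries held 11601929 to 70627239 counts, so that 3 counts correspond to 0.0425 to 0.259 CPM on the unscaled totals. All other CPM values are on TMM-scaled library sizes. The floor covers counting error only, and the lowest value of any member was 1.61 CPM. Alveolar markers such as surfactant genes were abundant in every library, with a summed level of 25060 to 40050 CPM over the 12-gene list. Heart-muscle transcripts stood out in MCT-Vehicle 2, at 449.5 CPM over 11 genes, and in Control 4, at 279.4 CPM, against 21.02 to 89.64 CPM elsewhere. In the MCT-Fer-1 group the heart gene Nppa was at 0 in every library. The 13-gene macrophage list summed to 1502 to 1732 CPM in MCT-Fer-1, 1487 to 2221 CPM in MCT-Vehicle and 999.7 to 1153 CPM in Control, with Marco at 0 in every Control library. Whether every library is its own animal is not given, and p-values therefore cover only the spread among these libraries.

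Promoter sequence is a property of the members that can be read apart from their expression. RefSeq promoter windows of the rat build GRCr8, 250 bases before to 50 bases after each gene's start, were found by symbol for 29 of 38 members. No window was used for Ddx58, Dhx58, Adar, Ifit1, Ifit2, Mx2, Isg15, Usp18 and Rtp4. The core of the interferon-stimulated response element, GAAA, any 2 bases and GAAA on either strand, was present in 18 of 29 windows (62.1%), against 3.92% of 33469 windows in the table and 2.98% of 12134 windows of genes tested. The longer form, the core followed by CT, was present in 10 of 29 (34.5%), against 0.278% of all windows, and each such match also holds the core. The core of the gamma-activated site, TTCNNNGAA, which reads the same on both strands, was present in 6 of 29 (20.7%), against 8.87% of all windows. Oas1a, Bst2, Trim21, Ifi44 and Ifi27 held the response element core more than once. These are letter matches and not measured binding sites, and some overlap, as both matches in Oas1a do.

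The 4 members called in any comparison are shown because their values carry the results and their motifs differ. Each run is the 250 bases before the start, 5′ to 3′ on the gene's own strand in GRCr8, with the motif match in capitals. Lgals3bp (chr10:104127849-104128098 on the minus strand) carries the longer response element form from base -50, of which the 10 core letters are in capitals. Gbp4 (chr2:233978236-233978485 on the plus strand) carries the core on the opposite strand from base -10, and Eif2ak2 (chr6:21940904-21941153 on the plus strand) carries it from base -16. Irf1 (chr10:38417685-38417934 on the plus strand) carries the gamma-activated site core from base -142 and no response element core.
Lgals3bp: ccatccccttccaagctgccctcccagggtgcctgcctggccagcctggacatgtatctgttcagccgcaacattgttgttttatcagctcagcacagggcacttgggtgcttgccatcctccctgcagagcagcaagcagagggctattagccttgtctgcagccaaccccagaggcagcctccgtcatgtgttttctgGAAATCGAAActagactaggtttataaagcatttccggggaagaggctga
Gbp4: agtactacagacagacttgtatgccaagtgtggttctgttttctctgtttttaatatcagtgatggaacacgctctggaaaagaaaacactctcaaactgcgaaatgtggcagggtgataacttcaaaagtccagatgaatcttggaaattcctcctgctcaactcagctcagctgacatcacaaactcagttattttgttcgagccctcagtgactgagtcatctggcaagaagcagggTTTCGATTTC
Eif2ak2: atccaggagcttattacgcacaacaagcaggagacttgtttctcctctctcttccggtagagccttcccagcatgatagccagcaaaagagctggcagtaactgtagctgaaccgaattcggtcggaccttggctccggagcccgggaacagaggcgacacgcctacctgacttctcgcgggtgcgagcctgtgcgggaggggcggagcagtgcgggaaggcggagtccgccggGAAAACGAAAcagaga
Irf1: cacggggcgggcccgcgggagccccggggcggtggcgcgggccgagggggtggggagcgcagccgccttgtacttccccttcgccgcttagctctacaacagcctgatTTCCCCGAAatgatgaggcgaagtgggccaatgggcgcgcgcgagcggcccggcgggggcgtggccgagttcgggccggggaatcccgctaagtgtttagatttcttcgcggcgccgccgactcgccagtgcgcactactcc
The 3 genes that were higher in MCT-Vehicle than in Control hold a response element core within 50 bases of the start, but so do genes that were not called, among them Trim21, Gbp2 and Ifit3. A match in the window did not separate called from uncalled members.

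**Figure D2:**
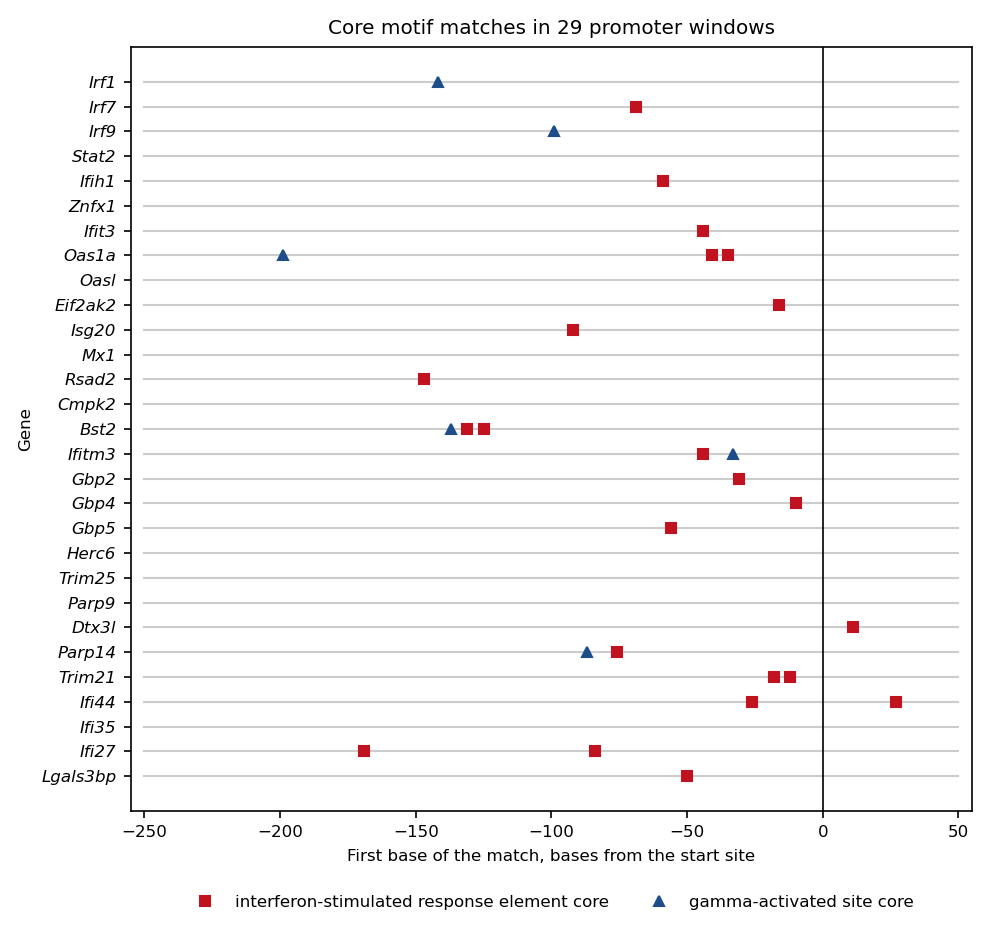
Matches to the interferon-stimulated response element core (red squares) and the gamma-activated site core (blue triangles) in 29 promoter windows, by distance of the first base from the gene's start in bases; grey lines span each window. Most response element matches lie within 100 bases before the start, and Irf1 and Irf9 hold only a gamma-activated site core.

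Lgals3bp (ENSRNOG00000003217), which encodes a secreted glycoprotein that binds galectin-3, had the smallest p of any member against Control. In the order of libraries 1 to 4, as for all values below, it had 289, 209.6, 223 and 217 CPM in MCT-Fer-1, 283, 306, 281 and 294 CPM in MCT-Vehicle, and 137, 150.2, 142 and 148 CPM in Control. All 8 monocrotaline values lay above all 4 Control values, and MCT-Fer-1 1 lay among the MCT-Vehicle libraries while the other MCT-Fer-1 libraries lay below them. Group means were 234 ± 36.5 CPM in MCT-Fer-1, 291 ± 11.7 CPM in MCT-Vehicle and 144 ± 6.16 CPM in Control (SD, n = 4 each). The log2 fold change was 1.01 ± 0.09 (SE) in MCT-Vehicle against Control (edgeR adjusted p = 4.60e-05) and 0.70 ± 0.09 in MCT-Fer-1 against Control (edgeR adjusted p = 4.52e-04). Between the monocrotaline groups, MCT-Fer-1 against MCT-Vehicle, it was -0.31 ± 0.09, with a 95% interval of -0.51 to -0.12, and was not called (edgeR adjusted p = 0.238, the smallest of any member in that comparison). Lgals3bp is also made by macrophages, whose markers were called higher for 11 of 13 genes in MCT-Vehicle and 9 of 13 genes in MCT-Fer-1, each against Control. Other lists moved with the groups as well. Endothelial markers were lower for 4 and higher for 1 of 10 genes in MCT-Vehicle against Control, with sums of 2914 to 3705 CPM in MCT-Vehicle and 4287 to 4659 CPM in Control, and red-cell genes were lower for 7 of 7. Against Control, MCT-Fer-1 had 2 endothelial markers lower and 1 higher, and 4 of 7 red-cell genes lower. The part of these cells in the result was not tested, and in whole-lung RNA a change in the number of cells of a type and a change in RNA per cell cannot be told apart.

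The other members of this mixed group of induced genes were not called. Ifi35, whose product partners with NMI in interferon signalling, had 35.9, 49.4, 44.6 and 43.3 CPM in MCT-Fer-1, 45.9, 46.2, 44.97 and 53.1 CPM in MCT-Vehicle, and 35.4, 46.9, 39.3 and 47.1 CPM in Control. Its groups overlapped throughout. Ifi44, Ifi27 and Rtp4 had log2 fold changes of -0.06, 0.29 and 0.10 in MCT-Vehicle against Control. Ifi44 ranged over 46.7 to 52.6 CPM in MCT-Fer-1, 38.1 to 71.95 CPM in MCT-Vehicle and 54.6 to 64.3 CPM in Control, so that every MCT-Fer-1 value lay below every Control value although the difference, -0.21 ± 0.16 on the log2 scale, was not called (edgeR adjusted p = 0.454).

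**Figure D3:**
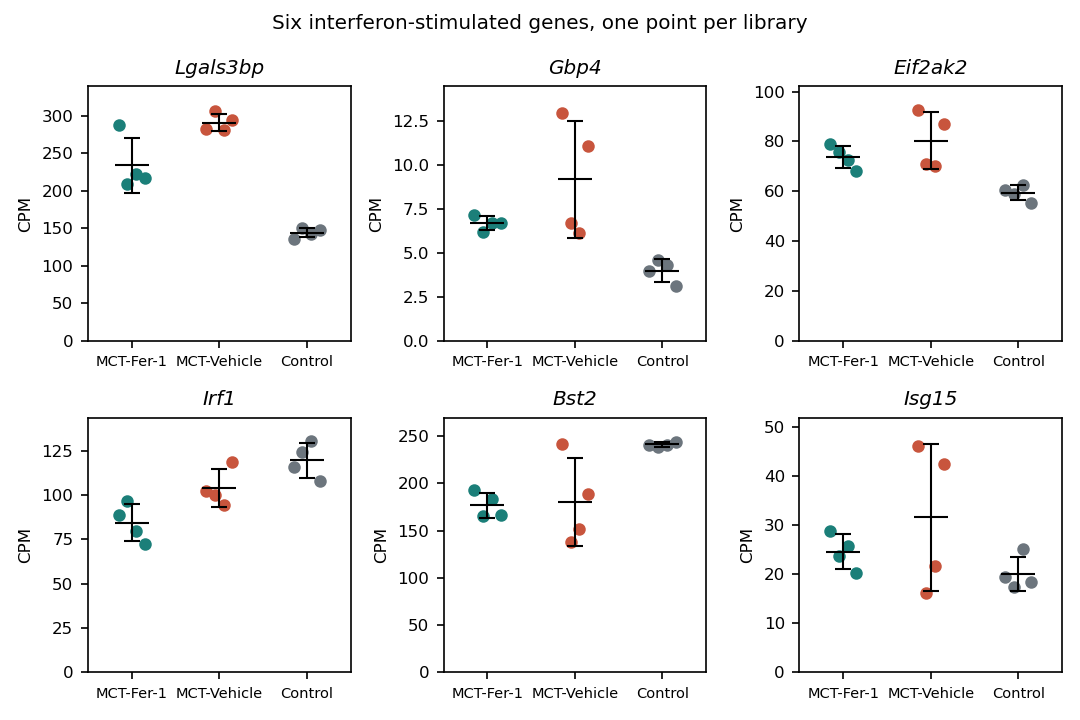
CPM of Lgals3bp, Gbp4, Eif2ak2, Irf1, Bst2 and Isg15, with 1 point per library and bars for the mean and SD of the 4 libraries in each group. Lgals3bp, Gbp4 and Eif2ak2 lie higher in all MCT-Fer-1 and MCT-Vehicle libraries than in Control, the Control values of Bst2 lie within 238 to 244 CPM, and the MCT-Vehicle values of Isg15 fall into a high and a low pair.

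Guanylate-binding proteins are GTPases that coat the vacuoles of intracellular pathogens, and Gbp4 was the 1 of 3 members that rose, in MCT-Vehicle against Control. Gbp4 (ENSRNOG00000028768) had 7.15, 6.22, 6.69 and 6.74 CPM in MCT-Fer-1, 12.9, 6.71, 6.12 and 11.1 CPM in MCT-Vehicle, and 3.96, 4.60, 4.34 and 3.14 CPM in Control. Every monocrotaline value lay above every Control value, and within MCT-Vehicle libraries 1 and 4 were high and 2 and 3 close to MCT-Fer-1. The log2 fold change was 1.20 ± 0.23 in MCT-Vehicle against Control (edgeR adjusted p = 0.00360) and 0.74 ± 0.23 in MCT-Fer-1 against Control, where it missed the threshold (edgeR adjusted p = 0.0597). Between MCT-Fer-1 and MCT-Vehicle it was -0.47 ± 0.22 (edgeR adjusted p = 0.434). Other settings did call Gbp4 higher in MCT-Fer-1 against Control. DESeq2 (adjusted p = 0.0242), limma voom (adjusted p = 0.035) and edgeR with only the 2 groups compared (adjusted p = 0.0134) did so. So did edgeR without MCT-Vehicle 1, 2 or 3 (adjusted p = 0.0364, 0.0471 and 0.0363). Gbp2, by contrast, had 120.5, 130.00, 109 and 101 CPM in MCT-Fer-1, 149, 108, 95.8 and 127 CPM in MCT-Vehicle, and 103, 104, 125 and 95.1 CPM in Control, with groups that overlapped and a log2 fold change of 0.17 ± 0.13 in MCT-Vehicle against Control (edgeR adjusted p = 0.402). Gbp5 had a log2 fold change of 0.03 in that comparison. The Gbp genes are near copies of each other, and the sources used here do not give how shared reads were counted, which leaves the values of single genes uncertain.

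Eif2ak2 led the RNA-binding effectors and nucleases, a group of 7 members. It encodes PKR, the kinase that stops translation when it binds double-stranded RNA. Eif2ak2 (ENSRNOG00000048315) had 78.9, 75.7, 72.6 and 68.2 CPM in MCT-Fer-1, 92.8, 71.1, 70.03 and 87.2 CPM in MCT-Vehicle, and 60.5, 59.03, 62.6 and 55.4 CPM in Control. All monocrotaline values lay above all Control values, and MCT-Fer-1 and MCT-Vehicle overlapped. The log2 fold change was 0.44 ± 0.09 in MCT-Vehicle against Control (edgeR adjusted p = 0.00623). In MCT-Fer-1 against Control it was 0.31 ± 0.09 (edgeR adjusted p = 0.0478), a call near the threshold that held in 5 of the 12 fits that left out 1 library. It was lost without any 1 of MCT-Fer-1 1, 2 and 3 or of the 4 Control libraries, with edgeR adjusted p up to 0.132 and log2 fold changes of 0.28 to 0.35 over the 12 fits. It was also lost with no filter on low counts.

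Ifit2, one of the tetratricopeptide-repeat proteins that bind foreign RNA, came next in this role. It had 66.2, 61.4, 58.1 and 51.4 CPM in MCT-Fer-1, 83.4, 54.9, 46.8 and 69.4 CPM in MCT-Vehicle, and 39.2, 46.5, 50.5 and 48.2 CPM in Control. Every MCT-Fer-1 value lay above every Control value, while MCT-Vehicle 3 lay within the Control range. Its log2 fold change was 0.47 ± 0.16 in MCT-Vehicle against Control and 0.36 ± 0.16 in MCT-Fer-1 against Control. With edgeR and all 12 libraries neither was called (edgeR adjusted p = 0.0545 and 0.168). Other settings called Ifit2 higher. In the first comparison these were DESeq2 (adjusted p = 0.0259) and edgeR without MCT-Vehicle 2 or 3 (adjusted p = 0.0476 and 0.013). In the second it was edgeR with only the 2 groups compared (adjusted p = 0.0404). The other members of the role were Ifit1, Ifit3, the oligoadenylate synthetase gene Oas1a, its relative Oasl and the exonuclease gene Isg20. Their log2 fold changes in MCT-Vehicle against Control ran from 0.08 for Oasl to 0.47 for Ifit1, all positive and none called with all libraries. Isg20 was called higher in that comparison without MCT-Vehicle 3 (edgeR adjusted p = 0.0127).

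Ifit1, singled out after its values were seen, was the most variable member. It had 26.5, 23.9, 46.3 and 15.6 CPM in MCT-Fer-1, 35.04, 15.6, 28.8 and 28.5 CPM in MCT-Vehicle, and 24.2, 1.61, 31.2 and 20.8 CPM in Control. Control 2 stood far below the other 11 libraries. The 95% interval of its log2 fold change in MCT-Vehicle against Control was -0.90 to 1.84. The estimate was 0.47 with all libraries, 0.09 without Control 2 and 0.79 without Control 3. Rat Ifit1 has a near copy, Ifit1bl, between which reads could be split.

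Of the 4 members that carry the interferon signal to DNA, none was called higher and 1 was called lower. This was Irf1, a transcription factor induced above all by interferon-gamma, and it was the 1 member of the 38 called lower in any comparison with edgeR, TMM scaling and all 12 libraries. Under other settings Bst2 and Trim21 were called lower as well, as given below. Irf1 (ENSRNOG00000008144) had 89.03, 96.8, 79.7 and 72.7 CPM in MCT-Fer-1, 102, 100.2, 94.4 and 119 CPM in MCT-Vehicle, and 116, 124, 130.3 and 108 CPM in Control. MCT-Fer-1 lay wholly below Control, and MCT-Vehicle lay between them and overlapped both. The log2 fold change was -0.50 ± 0.10 in MCT-Fer-1 against Control (edgeR adjusted p = 0.00671), -0.30 ± 0.10 in MCT-Fer-1 against MCT-Vehicle (edgeR adjusted p = 0.279) and -0.20 ± 0.10 in MCT-Vehicle against Control (edgeR adjusted p = 0.179). Of these 3 only the first was called, and it held in all 12 fits that left out 1 library. The 3 comparisons share their libraries.

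Irf9, whose product partners with STAT2 and binds DNA, had 72.8, 55.2, 51.8 and 50.9 CPM in MCT-Fer-1, 77.2, 57.9, 59.4 and 69.5 CPM in MCT-Vehicle, and 57.7, 60.5, 65.4 and 56.8 CPM in Control. Groups overlapped and no comparison was called. Stat2 had group means of 123 ± 7.10 CPM in MCT-Fer-1, 123 ± 9.28 CPM in MCT-Vehicle and 115 ± 7.70 CPM in Control, with 95% intervals of the log2 fold change of -0.07 to 0.24 in MCT-Vehicle against Control and -0.15 to 0.16 in MCT-Fer-1 against MCT-Vehicle. Irf7, the factor that amplifies type I interferon production, ranged over 66.4 to 79.6 CPM in MCT-Fer-1, 43.7 to 105 CPM in MCT-Vehicle and 46.01 to 87.1 CPM in Control. No difference in Irf7 was called, and its range within MCT-Vehicle spanned those of the other groups.

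Among RNA sensors and editors 0 of 5 members were called in any comparison with edgeR, TMM scaling and all 12 libraries. Dhx58, which encodes LGP2, a regulator of RIG-I and MDA5, had 22.4, 23.7, 25.8 and 23.2 CPM in MCT-Fer-1, 33.8, 20.4, 22.4 and 29.99 CPM in MCT-Vehicle, and 18.4, 19.6, 21.9 and 19.7 CPM in Control. MCT-Fer-1 lay wholly above Control, and MCT-Vehicle 2 lay within the Control range. It differed by 0.42 ± 0.14 on the log2 scale in MCT-Vehicle against Control, close to the threshold (edgeR adjusted p = 0.0519). Other settings called Dhx58 higher in that comparison. They were DESeq2 (adjusted p = 0.0309), upper quartile factors (edgeR adjusted p = 0.0456) and edgeR without MCT-Vehicle 2 or 3 (adjusted p = 0.0145 and 0.0334). Znfx1, a helicase-like sensor of double-stranded RNA at mitochondria, had 91.4, 72.2, 72.7 and 64.9 CPM in MCT-Fer-1, 89.4, 78.2, 73.4 and 82.8 CPM in MCT-Vehicle, and 83.8, 89.9, 103 and 75.1 CPM in Control, with overlapping groups. The RIG-I gene Ddx58, the MDA5 gene Ifih1 and the RNA-editing enzyme gene Adar had log2 fold changes of 0.14, 0.11 and 0.02 in MCT-Vehicle against Control.

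Of the membrane, dynamin-like and nucleotide effectors 0 of 6 were called. Bst2, or tetherin, holds budding virions on the cell surface, and had 192, 165, 183 and 166 CPM in MCT-Fer-1, 242, 138, 151 and 188 CPM in MCT-Vehicle, and 241, 238, 241 and 244 CPM in Control. The 4 Control values lay close together and above all MCT-Fer-1 values, whereas MCT-Vehicle 1 reached the Control range. Log2 fold changes of Bst2 were -0.42 ± 0.14 in MCT-Vehicle against Control and -0.45 ± 0.14 in MCT-Fer-1 against Control (edgeR adjusted p = 0.0518 and 0.0578), both short of a call. Other settings did call them. DESeq2 called Bst2 lower in both (adjusted p = 0.0181 and 0.0166), and so did limma voom (adjusted p = 0.0247 and 0.0199) and edgeR without MCT-Vehicle 1 (adjusted p = 0.00227 and 0.00886). Other scalings also called the first, with edgeR adjusted p of 0.0473 for median-ratio and 0.0482 for upper quartile factors. The second was further called with only the 2 groups compared (edgeR adjusted p = 0.00217) and without MCT-Vehicle 2 (edgeR adjusted p = 0.0290). Ifitm3, which blocks fusion of virions in endosomes and has close paralogs, had 261, 291, 219.9 and 218 CPM in MCT-Fer-1, 302, 335, 196 and 340.4 CPM in MCT-Vehicle, and 269.7, 219.7, 201 and 234 CPM in Control, with the lowest MCT-Vehicle value below every Control value. Without that library, MCT-Vehicle 3, Ifitm3 was called higher in MCT-Vehicle against Control (edgeR adjusted p = 0.0151).

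The Mx proteins are dynamin-like GTPases that trap viral components, and their genes are near copies. Mx2, singled out after its values were seen, had 78.00, 42.6, 54.5 and 50.5 CPM in MCT-Fer-1, 155, 32.6, 39.7 and 77.4 CPM in MCT-Vehicle, and 82.5, 48.2, 66.3 and 41.1 CPM in Control. MCT-Vehicle 1 was the highest and MCT-Vehicle 2 the lowest of the 12 libraries, so that both extremes came from 1 group. Its log2 fold change in MCT-Vehicle against Control was 0.36 with all libraries, -0.26 without MCT-Vehicle 1 and 0.61 without MCT-Vehicle 2. Mx1, the viperin gene Rsad2 and the mitochondrial nucleotide kinase gene Cmpk2 had log2 fold changes of 0.18, 0.18 and -0.13 in that comparison.

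ISG15 is a ubiquitin-like protein that is attached to other proteins, and USP18 removes it and also restrains the interferon receptor. Isg15 had 28.8, 23.6, 25.7 and 20.3 CPM in MCT-Fer-1, 46.1, 16.1, 21.6 and 42.5 CPM in MCT-Vehicle, and 19.3, 17.4, 25.2 and 18.4 CPM in Control. In MCT-Vehicle, libraries 1 and 4 lay above all others and libraries 2 and 3 within or below the Control range, so that the group SD of 14.9 CPM exceeded the distance between the group means. Log2 fold changes of Isg15 were 0.66 ± 0.29 in MCT-Vehicle against Control (95% interval 0.02 to 1.29, edgeR adjusted p = 0.141) and -0.37 ± 0.29 in MCT-Fer-1 against MCT-Vehicle (95% interval -0.997 to 0.256, edgeR adjusted p = 0.641). Without MCT-Vehicle 2, Isg15 was called higher in MCT-Vehicle against Control (edgeR adjusted p = 0.0248). Usp18 had 25.6, 16.8, 20.5 and 16.1 CPM in MCT-Fer-1, 31.9, 14.2, 19.3 and 25.7 CPM in MCT-Vehicle, and 15.9, 16.4, 22.9 and 15.3 CPM in Control, with the same pair of MCT-Vehicle libraries high. The ligase genes Herc6, whose product attaches ISG15 in mouse, and Trim25, an activator of RIG-I, had log2 fold changes of 0.11 and -0.09 in MCT-Vehicle against Control.

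Genes of ADP-ribosylation and ubiquitin tagging had the smallest differences: in MCT-Vehicle against Control, their 4 log2 fold changes ran from -0.17 to 0.07. Trim21, a cytosolic antibody receptor and ubiquitin ligase, had 66.8, 74.8, 71.97 and 67.8 CPM in MCT-Fer-1, 62.04, 64.3, 62.9 and 63.3 CPM in MCT-Vehicle, and 71.96, 73.3, 76.7 and 61.7 CPM in Control. All 4 MCT-Fer-1 values lay above all 4 MCT-Vehicle values, the 1 member without overlap in that comparison, and a log2 fold change of 0.16 ± 0.07 was not called (edgeR adjusted p = 0.398). Trim21 was called lower in MCT-Vehicle against Control without Control 4 (edgeR adjusted p = 0.0292) but not with all libraries. Parp14, a mono-ADP-ribosyltransferase, had 105, 106, 107 and 84.6 CPM in MCT-Fer-1, 86.4, 92.7, 90.9 and 82.5 CPM in MCT-Vehicle, and 78.9, 87.5, 114 and 86.7 CPM in Control. Parp9 and its partner ligase gene Dtx3l, which act as a complex, had log2 fold changes of 0.07 and 0.06 in MCT-Vehicle against Control and -0.19 and -0.16 in MCT-Fer-1 against MCT-Vehicle.

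**Figure D4:**
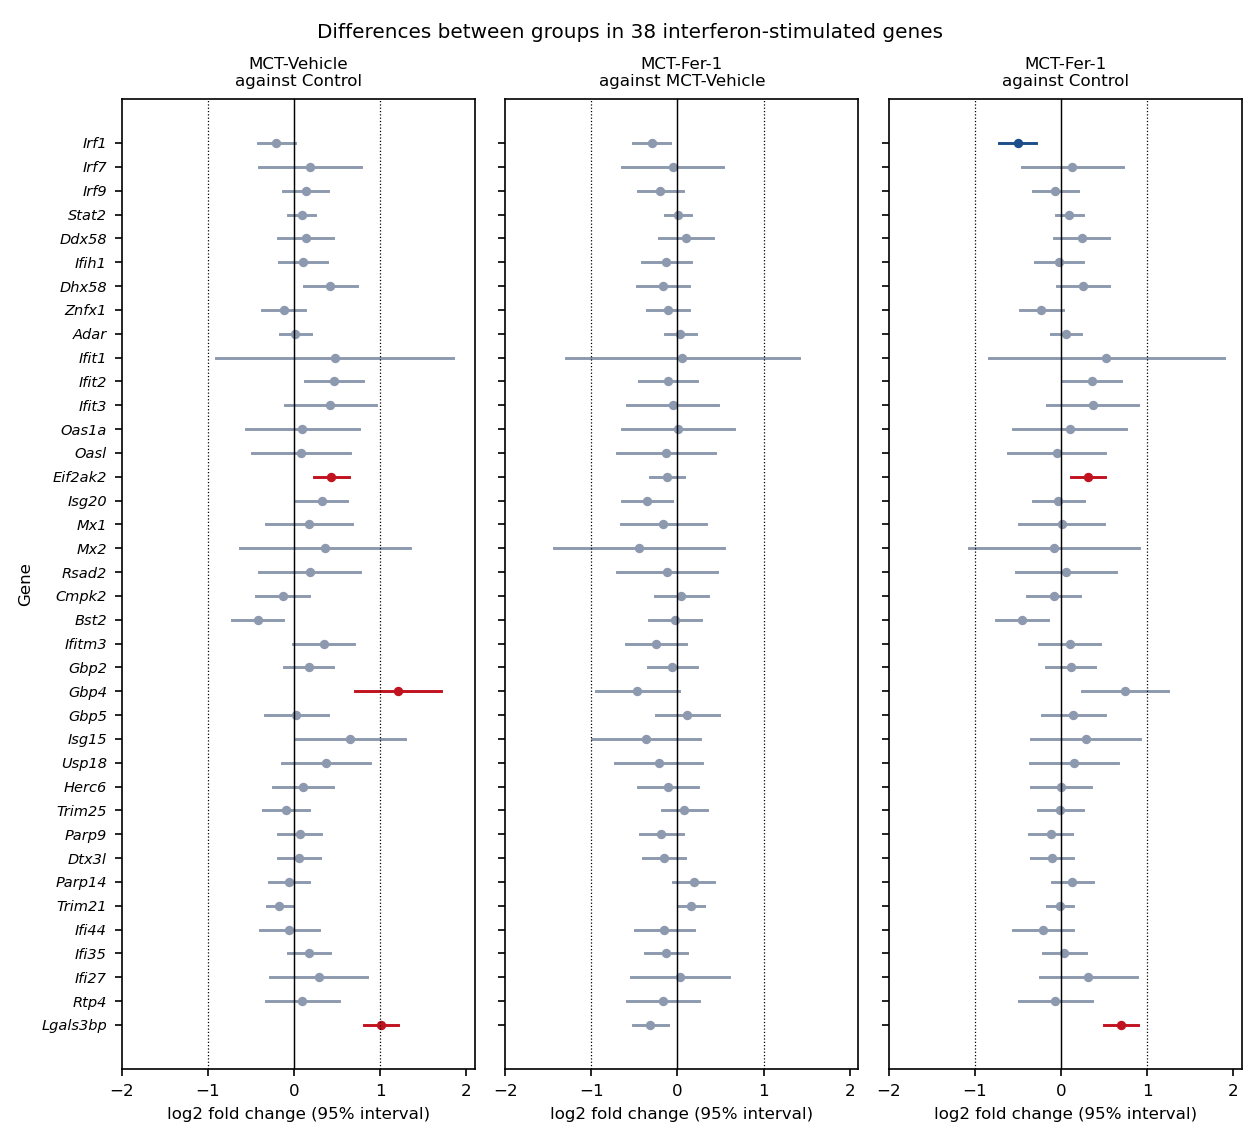
Log2 fold change of each of the 38 interferon-stimulated genes in the 3 comparisons, with its 95% interval from edgeR's quasi-likelihood fit; dotted lines mark a 2-fold difference, and genes called higher are red and lower blue. Called genes are Lgals3bp, Gbp4 and Eif2ak2 in MCT-Vehicle against Control, none in MCT-Fer-1 against MCT-Vehicle, and Lgals3bp, Eif2ak2 and Irf1 in MCT-Fer-1 against Control.

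The size of the difference was bounded for most members, called or not. In MCT-Vehicle against Control the 95% interval of the log2 fold change lay within 2-fold in either direction for 33 of 38 members. The others were Lgals3bp, Gbp4, Isg15, Ifit1 and Mx2. This was 86.8% of members, against 75.6% of all genes. In MCT-Fer-1 against MCT-Vehicle the interval did so for 36 of 38 (94.7%, against 83.2% of all genes), with Ifit1 and Mx2 as exceptions. In MCT-Fer-1 against Control it did so for 35 of 38 (92.1%, against 78.3% of all genes). By unadjusted p below 0.05, 9 of 38 members passed in MCT-Vehicle against Control against 32.1% of all genes, and 6 of 38 in MCT-Fer-1 against Control against 25.2% of all genes. Values of the 4 libraries of each group did not overlap for 3 of 38 members in MCT-Vehicle against Control, against 21.5% of all genes, and for 8 of 38 in MCT-Fer-1 against Control, against 19.1% of all genes. Those 8 were Dhx58, Ifit2, Eif2ak2, Gbp4 and Lgals3bp on the higher side and Irf1, Bst2 and Ifi44 on the lower side. By unadjusted p and by lack of overlap, the members' shares lay below or near those of all genes.

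For MCT-Fer-1 against MCT-Vehicle, the comparison that asks whether ferrostatin-1 altered these genes in monocrotaline lungs, 4 of 38 members had an unadjusted p below 0.05, against 12% of all genes. They were Lgals3bp, Irf1 and Isg20 with negative log2 fold changes and Trim21 with a positive one. No overlap between groups was seen for 1 of 38 members, against 6.10% of all genes. DESeq2 called 0 members and 244 of all genes, and limma voom called 0 members and 0 genes. Log2 fold changes of members ran from -0.47 for Gbp4 to 0.19 for Parp14. By role they ran from -0.35 to 0.05 among RNA-binding effectors, from -0.17 to 0.10 among RNA sensors and from -0.30 to 0.01 among signalling factors. Membrane and dynamin-like effectors ran from -0.44 to 0.05 and the ISG15 pathway from -0.37 to 0.08. No role had all its members on the same side of 0.

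Most members had the same sign of difference in MCT-Vehicle against Control, and the extent depended on which MCT-Vehicle libraries were in the fit. In MCT-Vehicle against Control 30 of 38 members had a positive log2 fold change (78.9%), against 52.4% of all genes, with a median of 0.14 against 0.02 for all genes. In MCT-Fer-1 against MCT-Vehicle 27 of 38 were negative (71.1%), against 52.2% of all genes, with a median of -0.12 against -0.01 for all genes. Both comparisons hold the same MCT-Vehicle libraries. The counts of signs and the medians were added after the data were seen. MCT-Vehicle 1 was the highest of all 12 libraries for 21 of 38 members, so that its removal was bound to lower the MCT-Vehicle values. Without it 20 of 38 were positive in MCT-Vehicle against Control and the median was 0.02. Likewise 21 of 38 were then positive in MCT-Fer-1 against MCT-Vehicle, with a median of 0.02. Leaving out MCT-Vehicle 2 or MCT-Vehicle 3 instead raised the members called higher against Control from 3 to 6 and 7. Their shares were then 15.8% and 18.4%, against 15.9% and 17.5% of all genes. In MCT-Fer-1 against Control 22 of 38 members were positive, against 49.4% of all genes, with a median of 0.05 and one of -0.0036 for all genes.

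Many members were high or low in the same libraries of a group. In MCT-Fer-1, 30, 18, 16 and 7 of the 38 members lay above their own group mean of log2 CPM in libraries 1 to 4. In MCT-Vehicle the counts were 33, 8, 6 and 32, and in Control they were 12, 14, 32 and 13. Of all genes tested, 48.4% to 52.2% lay above their group mean in each library. MCT-Vehicle 1 was the highest of all 12 libraries for 21 of 38 members, against 9.97% of all genes, and Control 3 was the highest of its group for 28 members. Libraries 1 and 4 of MCT-Vehicle both lay above libraries 2 and 3 for 26 of 38 members (68.4%), against 22.5% of all genes, a pattern looked for after the values were seen. The 26 included Irf7, Mx1, Rsad2, Isg15, Usp18, Oas1a, Ifi27 and Rtp4, and the other 12 included Stat2, Trim25, Trim21 and Lgals3bp. The macrophage list summed to 1487, 1669, 2221 and 1787 CPM in MCT-Vehicle 1 to 4, so that the library with most members high had the lowest sum. The heart-muscle list summed to 28.58, 449.5, 89.64 and 53.68 CPM in MCT-Vehicle 1 to 4, higher in the pair where the members were low. It was also lowest of its group in Control 3, at 21.02 CPM, and highest in Control 4, at 279.4 CPM. In MCT-Fer-1, where library 1 had most members high, it was 30.51, 50.46, 24.92 and 25.44 CPM. The endothelial list summed to 3705, 3360, 2914 and 3460 CPM in MCT-Vehicle 1 to 4, higher in the pair where the members were high. It was 4640, 3449, 3915 and 3220 CPM in MCT-Fer-1 and 4638, 4287, 4659 and 4395 CPM in Control. The T and NK cell list was 303.7, 274.3, 264.9 and 331.2 CPM in MCT-Vehicle. In Control it was highest in library 3, at 423.6 CPM, and in MCT-Fer-1 in library 2, at 402.9 CPM. The airway epithelial list was 5697, 8989, 7659 and 6010 CPM in MCT-Vehicle 1 to 4, lower in the pair where the members were high. It was 7787, 6945, 5969 and 9705 CPM in MCT-Fer-1 and 8432, 8211, 8094 and 9292 CPM in Control. B and plasma cell markers were lowest of their group in MCT-Vehicle 1 (279.3 CPM), Control 3 (253.2 CPM) and MCT-Fer-1 1 (244.4 CPM). In MCT-Vehicle 2 to 4 they were 377.2, 356.2 and 348.7 CPM. The part of these transcripts, or of other cell types, in the pattern was not tested.

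**Figure D5:**
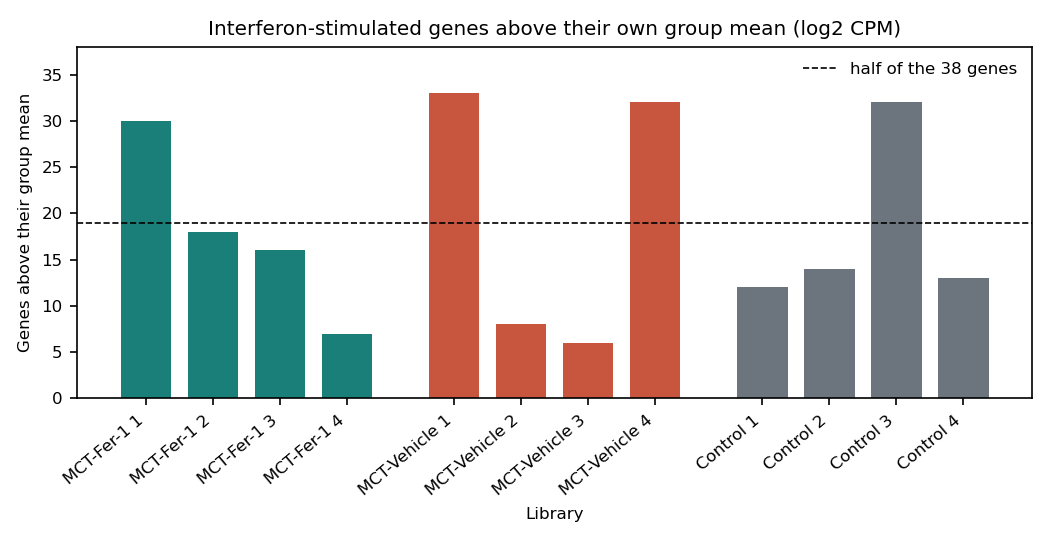
Number of the 38 interferon-stimulated genes whose log2 CPM lay above the mean of their own group, for each of the 12 libraries; the dashed line marks 19 genes. MCT-Vehicle 1, MCT-Vehicle 4, Control 3 and MCT-Fer-1 1 hold 30 to 33 genes above the mean, and the other 8 libraries hold 6 to 18.

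For most members the larger part of the variance lay within groups. Scored for each library as the mean of the members' standardised log2 CPM, the list averaged -0.0129 ± 0.350 in MCT-Fer-1, 0.228 ± 0.886 in MCT-Vehicle and -0.215 ± 0.478 in Control (SD, n = 4 each), a description with no test. The median member had 18.5% of its variance between groups, against 31.5% for the median of all genes. The median SD within groups was 0.22 on the log2 scale for members, against 0.19 for all genes and 0.15 for genes in the members' range of abundance. Ifit1, Mx2, Oas1a and Isg15 varied most, with SDs of 1.23, 0.68, 0.48 and 0.46. Trim21, Stat2 and Adar varied least, with SDs of 0.09, 0.10 and 0.12. Lgals3bp and Gbp4 had most of their variance between groups, 93.2% and 72.0%, as did Irf1 with 71.9% and Eif2ak2 with 69.9%. Bst2 followed with 56.4%, and no other member was above 50%. A high share goes with a call and is no further evidence for it.

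Genes upstream and beside the members were read from 4 lists of interferon pathway genes, 113 symbols of which 89 were tested. Transcripts of the interferons themselves were near absent. Among the 9 interferon genes of the count data, 6 had 0 counts in every library, and the others were Ifng with 27 counts over all 12 libraries and at most 7 in any, Ifne with 4 counts and Ifnk with 1 count, none of them tested. In MCT-Vehicle against Control 20 of 89 pathway genes were called higher and 2 lower, 24.7% beside 18.6% of all genes. Without Control 4 these counts were 9 higher and 2 lower, 12.2% beside 13.1% of all genes, so that the excess did not hold. Without Control 3 they were 14 and 0, 15.6% beside 13.2% of all genes. In MCT-Fer-1 against Control 7 were called higher and 3 lower, 11.2% beside 10.8% of all genes. Without MCT-Fer-1 2 the counts were 5 and 1, 6.67% beside 6.35% of all genes, and without MCT-Fer-1 3 they were the same beside 6.45% of all genes. Without Control 2 they were 5 and 1, 6.67% beside 7.27%, and without Control 3 they were 5 and 0, 5.56% beside 7.21%. In MCT-Fer-1 against MCT-Vehicle edgeR and limma voom called 0 of 89. Both had 10 of 89 at an unadjusted p below 0.05, where edgeR had 12% of all genes. DESeq2 called 2 of the 83 it tested, or 2.41% against 1.78% of all genes.

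In the list of nucleic acid sensing and interferon induction 8 of 19 genes were higher and 0 lower in MCT-Vehicle against Control. This was 42.1% of the list, against 18.6% of all genes called and 10.3% called higher. In MCT-Fer-1 against Control 2 of 19 were higher and 0 lower, or 10.5% against 10.8% of all genes. Tlr3, the endosomal receptor for double-stranded RNA, had 39.5 ± 1.28 CPM in MCT-Fer-1, 43.03 ± 2.59 CPM in MCT-Vehicle and 29.4 ± 2.39 CPM in Control (SD, n = 4 each). Tlr3 rose by 0.55 ± 0.07 in MCT-Vehicle against Control (edgeR adjusted p = 4.18e-04) and by 0.42 ± 0.07 in MCT-Fer-1 against Control on the log2 scale (edgeR adjusted p = 0.00308). Irf8, a transcription factor of macrophages and dendritic cells, rose in both, by 0.85 ± 0.13 and 0.63 ± 0.13 on the log2 scale (edgeR adjusted p = 9.33e-04 and 0.00824). The STING gene Tmem173 and Unc93b1, which carries nucleic acid-sensing receptors to endosomes, rose by 0.59 ± 0.11 and 0.57 ± 0.12 in MCT-Vehicle against Control (edgeR adjusted p = 0.00227 and 0.00564). Irf8 and Unc93b1 are expressed in myeloid cells, and the macrophage markers that rose beside them (11 of 13 genes in MCT-Vehicle against Control) were not tested for their part in the result. The smallest p of this list in MCT-Fer-1 against MCT-Vehicle belonged to the adaptor gene Myd88, at -0.28 ± 0.09 (edgeR adjusted p = 0.287), and to Tmem173, at -0.25 ± 0.10 (edgeR adjusted p = 0.362).

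Receptors, kinases and inhibitors of the pathway were called at a share near that of all genes or below it. The share was 18.8% beside 18.6% of all genes in MCT-Vehicle against Control. In MCT-Fer-1 against Control it was 6.25% beside 10.8%. In MCT-Vehicle against Control 2 of 16 rose, the interferon-gamma receptor chain gene Ifngr2 by 0.29 ± 0.09 and Stat3 by 0.24 ± 0.08 on the log2 scale (edgeR adjusted p = 0.0409 and 0.0486), and Pias1, an inhibitor of interferon signalling, fell (log2 fold change -0.43 ± 0.13, edgeR adjusted p = 0.0330). Of the 12 fits that left out 1 library, Ifngr2 was called in 5 (edgeR adjusted p up to 0.112), Stat3 in 4 (up to 0.132) and Pias1 in 6 (up to 0.0920). In MCT-Fer-1 against Control the feedback inhibitor gene Socs3 was the 1 call, lower, and it held in 7 of those 12 fits (edgeR adjusted p up to 0.0819). Socs3 had 12.4, 15.5, 18.00 and 11.1 CPM in MCT-Fer-1, 31.1, 33.6, 15.96 and 26.2 CPM in MCT-Vehicle, and 38.97, 22.1, 29.5 and 20.8 CPM in Control. MCT-Fer-1 lay wholly below Control, and MCT-Vehicle 3 lay within the MCT-Fer-1 range. Its log2 fold change was -0.97 ± 0.25 in MCT-Fer-1 against Control (edgeR adjusted p = 0.0303) and -0.91 ± 0.25 in MCT-Fer-1 against MCT-Vehicle (edgeR adjusted p = 0.224, DESeq2 adjusted p = 0.0303). Socs1, which blocks JAK kinases, had 1.72, 2.12, 2.16 and 2.29 CPM in MCT-Fer-1, 4.83, 3.58, 3.28 and 3.83 CPM in MCT-Vehicle, and 3.79, 2.16, 3.37 and 2.49 CPM in Control. All MCT-Fer-1 values lay below all MCT-Vehicle values, with a log2 fold change of -0.89 ± 0.22 that edgeR did not call (adjusted p = 0.192) and DESeq2 did (adjusted p = 0.0189). These are the 2 pathway genes that DESeq2 called in that comparison, and both are also induced by cytokines other than interferon.

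Further interferon-induced genes outside the 38 were called for 11 of 49 in MCT-Vehicle against Control, 10 higher and Helz2 lower. In MCT-Fer-1 against Control 6 of 49 were called, 4 higher, with Helz2 and Tdrd7 lower. These shares were 22.4% and 12.2%, beside 18.6% and 10.8% of all genes. Slfn13, which encodes an RNA-cleaving schlafen protein, had 48.7, 58.5, 47.3 and 53.6 CPM in MCT-Fer-1, 75.6, 62.2, 61.2 and 68.1 CPM in MCT-Vehicle, and 31.6, 22.3, 27.3 and 25.7 CPM in Control. The groups were separate, with MCT-Vehicle highest and Control lowest. Log2 fold changes of Slfn13 were 1.32 ± 0.11 in MCT-Vehicle against Control (edgeR adjusted p = 3.35e-05), 0.96 ± 0.11 in MCT-Fer-1 against Control (edgeR adjusted p = 1.93e-04) and -0.36 ± 0.11 in MCT-Fer-1 against MCT-Vehicle, not called (edgeR adjusted p = 0.254). Schlafen genes lie in a cluster of near copies, so its single value is uncertain.

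The chemokine gene Cxcl10, which draws T cells through CXCR3, had 4.74, 7.24, 4.08 and 4.94 CPM in MCT-Fer-1, 7.14, 4.26, 5.15 and 10.98 CPM in MCT-Vehicle, and 2.42, 1.38, 1.81 and 1.89 CPM in Control. Every monocrotaline value lay above every Control value. It rose by 1.87 ± 0.31 in MCT-Vehicle and by 1.48 ± 0.31 in MCT-Fer-1 on the log2 scale, each against Control (edgeR adjusted p = 0.00147 and 0.00885). Cxcl9, with the same receptor, rose in both as well, by 1.15 ± 0.31 in MCT-Vehicle and by 1.53 ± 0.31 in MCT-Fer-1 (edgeR adjusted p = 0.0207 and 0.00791), and its MCT-Vehicle call held in 9 of 12 fits that left out 1 library. Ms4a7, a macrophage membrane gene, rose by 1.92 ± 0.36 and the GTPase gene Ifi47 by 0.48 ± 0.10 in MCT-Vehicle against Control (edgeR adjusted p = 0.00312 and 0.00662). Ms4a7 was also higher in MCT-Fer-1 against Control, by 1.28 ± 0.36 (edgeR adjusted p = 0.0379), a call that held in 7 of 12 such fits. Macrophage markers rose beside it for 11 of 13 genes in MCT-Vehicle and 9 of 13 in MCT-Fer-1, and the part of these cells in the result was not tested. Tdrd7, an inhibitor of autophagy, fell in MCT-Fer-1 against Control (log2 fold change -0.26 ± 0.07, edgeR adjusted p = 0.0294), and the call held in 5 of 12 such fits. Among the cytokines listed with the interferons Il18 rose by 0.57 ± 0.15 in MCT-Fer-1 against Control (edgeR adjusted p = 0.0338). It was the 1 call of 5 tested, or 20% beside 10.8% of all genes, and held in 7 of 12 such fits. For MCT-Fer-1 against MCT-Vehicle, the gene of the cytokine interleukin-6, Il6, differed by -2.08 ± 0.78 on the log2 scale (edgeR adjusted p = 0.325). Il18 differed by 0.13 ± 0.15 (edgeR adjusted p = 0.762) and the chemokine gene Cxcl11 by -0.79 ± 0.35 (edgeR adjusted p = 0.395). Il6 was low, at 0.14 to 1.06 CPM in MCT-Fer-1 and 0.52 to 3.73 CPM in MCT-Vehicle. Its value in MCT-Fer-1 1, 0.259 CPM, lay at the floor of 3 counts. Cxcl11 had 0.34 to 0.59 CPM in MCT-Fer-1 and 0.52 to 0.998 CPM in MCT-Vehicle.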

How the data were processed

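Whole-lung total RNA was sequenced from 12 libraries, 4 per group, grouped by their titles. The authors deposited raw read counts per gene for 32883 genes; aligner, counter, strand setting and build were "not given in the sources used here", and reads shared by near copies or overlapping genes cannot be assigned. The 3 deposited columns of group means hold signal values, the authors' averages of the counts per the file headers, and were not used. Counts were fitted with edgeR 4.0.16 (R 4.3.3): expression filter by group, TMM scaling, and a robust quasi-likelihood test over all 12 libraries with 9 residual degrees of freedom, with Benjamini-Hochberg adjustment over 15257 genes and a threshold of 0.05. The filter kept 99.9% of counts. SEs come from the F statistic. Levels are CPM on TMM-scaled library sizes, and log2 CPM has a prior count of 2. The fit was tested on simulated counts. Alternatives were other scalings, no filter, DESeq2 1.42.0, limma 3.58.1 voom, 2 groups only, a replicate block and leaving out libraries. Libraries ranged from 11601929 to 70627239 counts, and their number limits the precision. Every pair of libraries differed by more than counting noise, with a chi-square of at least 10.7 per degree of freedom. Members and lists were chosen with earlier results of these data known. Values of every library are given for members called and for the 2 members of each role with the smallest p. From each other list at most 4 called genes, or the 2 with the smallest p, are named.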

Additional observations from a re-analysis of the deposited data

Results flagged for a closer look

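Within groups of 4 libraries, 7 member levels had 1 library whose gap to the others, divided by the range of the group, exceeded Dixon's 95% critical value. They came from 114 groups examined (6.14%), where chance gives about 1 in 20. Lgals3bp was 289.0 CPM in MCT-Fer-1 1, against 209.6 to 222.6 CPM in the other MCT-Fer-1 libraries. Mx1 was 54.4 CPM in Control 3, against 37.4 to 39.1 CPM in the other Control libraries. Usp18 was 22.9 CPM in Control 3, against 15.3 to 16.4 CPM in the other Control libraries. Cmpk2 was 26.7 CPM in MCT-Fer-1 2, against 23.1 to 23.6 CPM in the rest of its group. Gbp5 was 43.5 CPM in MCT-Fer-1 1 and Parp14 was 84.6 CPM in MCT-Fer-1 4, both below the rest of their group. Ifi35 was 53.1 CPM in MCT-Vehicle 4, above the rest of its group.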

How the results depend on the processing

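Lgals3bp, Gbp4 and Eif2ak2 in MCT-Vehicle against Control, and Lgals3bp and Irf1 in MCT-Fer-1 against Control, were called in all 12 fits that left out 1 library. No direction of a called result turned. The number of members called in MCT-Vehicle against Control was 5 with upper quartile scaling (13.2% against 18.7% of all genes), 6 with DESeq2 (15.8% against 23.2%), 5 without MCT-Vehicle 2 and Control 4 together (13.2% against 10.9%), and 3 to 7 when 1 library was left out. In MCT-Fer-1 against Control it was 5 with DESeq2 (13.2% against 15.2% of all genes), 5 with limma voom (13.2% against 15.6%), 6 with only the 2 groups compared (15.8% against 12.6%), 2 without MCT-Vehicle 2 and Control 4 together (5.26% against 6.39%), and 2 to 5 when 1 library was left out. Over all genes, MCT-Vehicle against Control gave 1675 calls without MCT-Vehicle 2 and Control 4 and 2021 to 2860 when 1 library was left out, and MCT-Fer-1 against Control gave 978 and 977 to 1714. MCT-Fer-1 against MCT-Vehicle gave 244 genes with DESeq2, 1 with only the 2 groups compared and 0 to 41 when 1 library was left out, the 41 being without MCT-Vehicle 3. Other pathway genes called in MCT-Vehicle against Control were 11 without MCT-Vehicle 2 and Control 4 (12.2% against 10.9% of all genes). They were 11 to 23 when 1 library was left out. In MCT-Fer-1 against MCT-Vehicle they were 2 of 83 with DESeq2 (2.41% against 1.78% of all genes). In MCT-Fer-1 against Control they were 5 to 11 when 1 library was left out. In MCT-Fer-1 against MCT-Vehicle, positive log2 fold changes were held by 5 members without MCT-Vehicle 2 and Control 4 and 5 to 21 when 1 library was left out. The longer response element form was found in 10 promoter windows, against 18 for the core. The cause of these changes was not tested. The 12 same-numbered pairs of libraries correlated at -0.063 to 0.10 in their deviations, so no strong pairing by number was seen. Correlations over all genes cannot exclude a pairing of small effect. With the replicate number as a block 4, 0 and 3 members were called in MCT-Vehicle against Control, MCT-Fer-1 against MCT-Vehicle and MCT-Fer-1 against Control. The counts were then 2812, 0 and 1676 for all genes and 23, 0 and 12 for other pathway genes. Under the block Bst2 was called lower in both comparisons against Control, and Eif2ak2 was not called in MCT-Fer-1 against Control. With 11601929 counts in the shallowest library, interferon genes of a few counts could not be tested.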
